A study of Mus musculus with 6 samples.

Results

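Regulators of G-protein signalling (Rgs genes) were examined in cells of mouse bone marrow that the labels call LT-HSCs, long-term haematopoietic stem cells, which sustain blood formation for life. The 9 genes were chosen by name: Rgs1, Rgs2, Rgs3, Rgs10, Rgs12, Rgs14, Rgs16, Rgs18 and Rgs19, out of 55487 genes in the expression table. All 9 were found under these names. They were picked with the counts of the same libraries known, so their differences between the groups are given as a description, with no p-value, and whether each passed the threshold of the fit over all genes is stated only as a label that the choice itself could set. In 3 libraries the cells are labelled Mmrn1-high and in 3 Mmrn1-low. Mmrn1 encodes multimerin 1, a protein of platelets and endothelium, and both groups came from mice whose genotype is given as Mmrn1-GFP type (GFP is green fluorescent protein), so that there is no group without this allele. The construction of the allele is not described in the labels. Mouse age, sex, the sort gate and any link between replicates and separate mice are not given in the labels, so the spread between libraries may be technical.

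Gene counts per library totalled between 11595104 and 30909990. Levels are in CPM, the share of a library's counts after TMM scaling, which adjusts each library total for composition; 3 counts corresponded to between 0.0925 and 0.245 CPM. Mmrn1 itself averaged 10.0 ± 1.33 CPM in Mmrn1-high and 5.69 ± 0.112 CPM in Mmrn1-low libraries (SD, n = 3 each). The log2 fold change, Mmrn1-high minus Mmrn1-low, was 0.82 ± 0.12 (SE) for Mmrn1. Of 11 LT-HSC markers, 9 were higher in Mmrn1-high cells and none was lower. Their summed levels were between 653 and 690 CPM in Mmrn1-high and between 416 and 440.2 CPM in Mmrn1-low libraries. Kit made up most of both sums, at 395 ± 5.17 CPM in Mmrn1-high and 329 ± 5.54 CPM in Mmrn1-low libraries. The log2 fold change of Kit was 0.26 ± 0.026 (SE), against a median of 1.501 over the 11 markers. Vwf averaged 8.64 ± 1.02 CPM in Mmrn1-high and 8.65 ± 1.35 CPM in Mmrn1-low libraries. Hoxb5 averaged 1.27 ± 0.714 CPM in Mmrn1-high and 0.775 ± 0.0963 CPM in Mmrn1-low libraries. Neither differed beyond its spread. The 7 measured markers of granulocyte and monocyte progenitors were all lower in Mmrn1-high cells. Their summed level was between 3426 and 3499 CPM in Mmrn1-high and between 23209.9 and 24479 CPM in Mmrn1-low libraries. Both groups thus held progenitor transcripts under the LT-HSC label, and the Mmrn1-low libraries held far more. In such bulk libraries fewer cells of a type and less RNA per cell cannot be told apart.

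Heterotrimeric G proteins carry signals from membrane receptors while their alpha subunit holds GTP. The RGS domain binds the active alpha subunit and speeds its hydrolysis of GTP, so that RGS proteins shorten the signal. In blood cells they are known for limiting responses to chemokines, sphingosine-1-phosphate and platelet agonists, and stem cells depend on a chemokine receptor of this kind, Cxcr4, for their retention in marrow. The 9 genes fall into 3 subfamilies: R4, small proteins with little beside the RGS domain (Rgs1, Rgs2, Rgs3, Rgs16 and Rgs18); R12 (Rgs10, Rgs12 and Rgs14); and RZ (Rgs19).

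Most of the 9 chosen genes were higher in Mmrn1-high cells, the largest difference among those tested being more than 8-fold. Rgs19 did not differ beyond its spread, and Rgs14 was lower. A gene was called where the edgeR quasi-likelihood test gave an adjusted p under 0.05 over 15419 genes that passed a filter on low counts. Of the 9 genes, 8 passed that filter, and the fit labelled 6 of them higher, 1 lower and 1 not called, which describes the values they were picked with and tests nothing. Over all genes tested, 61.2% were called, 30.7% higher and 30.5% lower, and nothing is read from the Rgs count beside this background. The median log2 fold change was 0.48 over the 8 Rgs genes and 0.01 over all genes tested. For 7 of the 8 genes no Mmrn1-high library overlapped a Mmrn1-low one in CPM, which held for 67.8% of all genes tested.

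**Figure D1:**
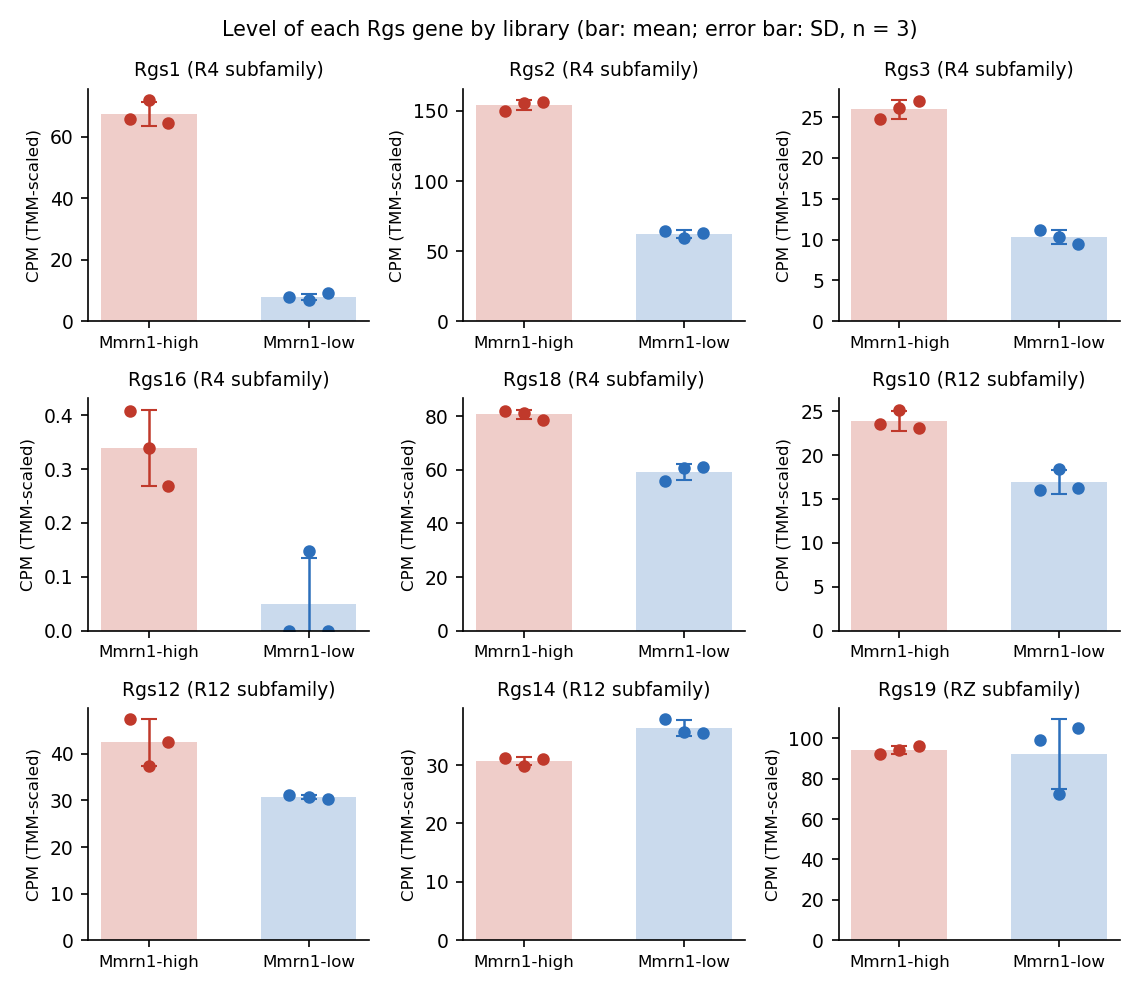
Level of each of the 9 Rgs genes in CPM (TMM-scaled, linear axis with its own scale in each panel); points are libraries, bars means and error bars SDs over 3 libraries, Mmrn1-high in red on the left and Mmrn1-low in blue on the right. Rgs1 averages 67.5 CPM in Mmrn1-high and 7.92 CPM in Mmrn1-low, Rgs14 lies lower in Mmrn1-high, and the Mmrn1-low libraries of Rgs19 spread on both sides of the Mmrn1-high ones.

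Among the R4 genes that passed the filter, Rgs1, known for damping chemokine responses of lymphocytes, had the highest fold change. Its level was 65.9, 72.0 and 64.6 CPM in the Mmrn1-high libraries, against 7.74, 7.01 and 9.02 CPM in the Mmrn1-low libraries. Every Mmrn1-high library lay far above every Mmrn1-low one, and the log2 fold change was 3.08 ± 0.10 (SE), or 8.43-fold. Rgs1 (ENSMUSG00000026358) lies on the minus strand of chromosome 1 at 144242296-144249242 (GRCm38). Its 3′ untranslated region has 10 copies of ATTTA, the core of the AU-rich elements that mark many short-lived transcripts for decay. It also has 1 copy of the longer element TTATTTATT, which is shown because Rgs1 and Rgs16, the genes with the highest ratios, were the 2 of the 9 that carried it. Among 12200 tested genes with an annotated 3′ untranslated region, 8.0% carried this element on the transcript strand, and the search was chosen after the values were seen. The capitals mark the element in the Rgs1 site (GENCODE M21 transcript, GRCm38, chr1:144243182-144243210, minus strand) and in the Rgs16 sites (chr1:153745169-153745197 and chr1:153745330-153745358, plus strand).
Rgs1: taaatgtttaTTATTTATTacttgaagat
Rgs16, upstream site: gctgctattgTTATTTATTgtggtttgtt
Rgs16, downstream site: gtgttaatatTTATTTATTgttaacaaag

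Rgs16, an inducible regulator of chemokine receptor signalling in lymphocytes and megakaryocytes, was close to the limit of detection. It had 5, 11 and 4 counts in the Mmrn1-high libraries, against 0, 2 and 0 counts in the Mmrn1-low libraries. With 20 against 2 counts in all, it did not pass the filter, and the depth-corrected ratio was 9.73, with an exact 95% conditional binomial interval of 2.36 to 85.9 that covers counting error only. Rgs16 (chromosome 1, 153740349-153745468, plus strand) shares 236 exon bases, 10.1% of its length, with the antisense gene Gm28513, which had 9 counts in all. Without the strand setting of the counting, reads of this overlap cannot be assigned to one gene. Its 3′ untranslated region has 4 copies of ATTTA. Those of Rgs2 and Rgs18 have 5 copies each and no copy of the longer element, and those of Rgs3 and Rgs19 have 1. No copy was found in Rgs10, Rgs12 or Rgs14. At least 4 copies were thus present in 4 of the 9 genes, among them the untested Rgs16, against 29.4% of the tested genes. Longer regions can hold more copies. Per kb there were 4.43 copies in Rgs18, 3.33 in Rgs1, 2.48 in Rgs16, 2.13 in Rgs2, 1.18 in Rgs19 and 0.38 in Rgs3. The median over tested genes was 1.29 per kb.

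Rgs2, which acts mainly on alpha subunits of the Gq class, was more than 2-fold higher in Mmrn1-high cells. Its level was 150.2, 156 and 157 CPM in the Mmrn1-high libraries, against 64.3, 59.2 and 63.1 CPM in the Mmrn1-low libraries. The groups lay well apart and each was tight, with a log2 fold change of 1.31 ± 0.04 (SE), or 2.48-fold. Rgs2 (ENSMUSG00000026360) lies on the minus strand of chromosome 1 at 143999338-144004161. Its promoter is shown because Rgs2 is an inducible gene and because Rgs1 and Rgs18, its neighbours on the chromosome, have no promoter in the table used. In the RefSeq promoter (GRCm38.p6, chr1:144004100-144004399, minus strand, 250 bases before the start and 50 after it), capitals mark TGACG, the core of the cAMP response element, which begins 185 bases before the start on the opposite strand, as CGTCA, and 67 bases before it on the gene's strand.
Rgs2: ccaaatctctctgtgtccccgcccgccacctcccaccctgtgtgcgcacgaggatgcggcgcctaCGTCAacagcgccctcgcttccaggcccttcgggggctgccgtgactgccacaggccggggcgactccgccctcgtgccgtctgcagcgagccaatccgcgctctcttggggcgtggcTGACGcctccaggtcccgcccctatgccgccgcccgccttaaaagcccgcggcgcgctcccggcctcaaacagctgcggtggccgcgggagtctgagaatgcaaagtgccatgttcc
That core is present, on either strand, in 20.8% of 32851 promoters of the same length. Promoters were matched for 6 of the 9 genes, 10 promoters in all. Besides Rgs2, a second promoter of Rgs12 held TGACG and the AP-1 motif TGANTCA (7.81% of all promoters), and overlapping promoters of Rgs19 shared a copy of the NF-kappaB motif GGGANTTCC (1.68%). The 10 promoters had no match, on either strand, to the whole cAMP response element TGACGTCA (1.79% of all promoters), the Egr1 motif GCGTGGGCG (0.612%) or the STAT motif TTCNNNGAA (8.3%). Matches to TGACGTCA also hold TGACG. Their median GC content was 66.3%, against 52.7% over all promoters.

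Rgs3, whose longer forms carry further domains for binding partners, differed by a similar fold. It reached 24.8, 26.1 and 27.0 CPM in the Mmrn1-high libraries, against 11.2, 10.3 and 9.44 CPM in the Mmrn1-low libraries. No library overlapped, and the log2 fold change was 1.34 ± 0.09 (SE), or 2.53-fold. The gene spans chromosome 4, 62559847-62704001, on the plus strand.

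Rgs18, a regulator abundant in megakaryocytes and platelets, where it restrains platelet activation, was present in every library of both groups. Its level was 82.1, 81.4 and 78.8 CPM in the Mmrn1-high libraries, against 56.0, 60.6 and 61.1 CPM in the Mmrn1-low libraries. The groups did not overlap, but the difference was smaller than for the other R4 genes, at a log2 fold change of 0.45 ± 0.05 (SE), or 1.36-fold. Among 12 megakaryocyte and platelet markers, 7 were tested, 6 of these were higher in Mmrn1-high cells and none was lower. Their summed level was between 227 and 236 CPM in Mmrn1-high and between 91.9 and 93.3 CPM in Mmrn1-low libraries, with Gp6 at 0 in every library. Itga2b made up most of that sum, at 177 ± 1.86 CPM in Mmrn1-high and 63.2 ± 0.921 CPM in Mmrn1-low libraries. Pf4 was the tested marker not called, at 2.12 ± 0.215 CPM in Mmrn1-high and 2.25 ± 0.352 CPM in Mmrn1-low libraries (adjusted p = 0.947). The part of these marker transcripts in the Rgs18 difference was not tested.

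Rgs2, Rgs1 and Rgs18 lie together on chromosome 1. The 776 kb from the start of Rgs2 to the end of Rgs18 (143999338-144775435) hold 5 protein-coding genes, all of them Rgs genes on the minus strand: Rgs2, Rgs13, Rgs1, Rgs21 and Rgs18. Rgs13 and Rgs21 had no count in any library, which allows at most 3 counts per library, or between 0.0925 and 0.245 CPM. Along the cluster the difference was thus uneven, with 1.31 for Rgs2, 3.08 for Rgs1 and 0.45 for Rgs18 on the log2 scale. Per 100 Rgs2 counts, Rgs1 had 43.9, 46.2 and 41.2 counts in the Mmrn1-high libraries, against 12.04, 11.8 and 14.3 in the Mmrn1-low libraries. Per 100 Rgs18 counts, Rgs2 had 183, 192 and 199 counts in the Mmrn1-high libraries, against 115, 97.7 and 103 in the Mmrn1-low libraries. Both ratios are free of library scaling, and neither overlapped between the groups. They restate differences of genes picked with these values known, and test nothing. Outside the cluster, the nearest protein-coding gene, Uchl5, had 5796 counts in Mmrn1-high and 8463 in Mmrn1-low libraries.

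**Figure D2:**
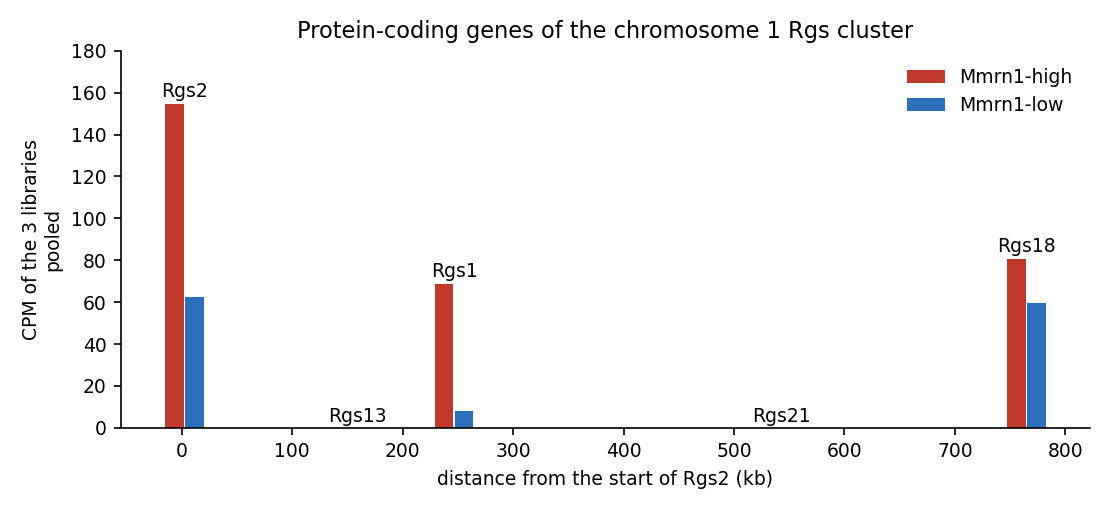
Level of the 5 protein-coding genes of the chromosome 1 Rgs cluster, in CPM over the 3 libraries of a group pooled, against distance in kb from the start of Rgs2; red bars are Mmrn1-high and blue bars Mmrn1-low. Rgs2, Rgs1 and Rgs18 are higher in Mmrn1-high by different amounts, and Rgs13 and Rgs21 have 0 counts.

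The R12 genes did not move as a block. Rgs10, a small RGS protein of leukocytes and platelets, had 23.5, 25.2 and 23.0 CPM in the Mmrn1-high libraries, against 15.99, 18.4 and 16.3 CPM in the Mmrn1-low libraries. These values did not overlap, with a log2 fold change of 0.51 ± 0.08 (SE), or 1.42-fold. Rgs10 lies on chromosome 7 at 128373621-128418758, on the minus strand.

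Rgs12 and Rgs14 share a GoLoco motif, which holds inactive Gi alpha subunits bound to GDP. Rgs12 had 47.5, 37.5 and 42.5 CPM in the Mmrn1-high libraries, against 31.2, 30.7 and 30.3 CPM in the Mmrn1-low libraries. The Mmrn1-high libraries were all higher but spread more, with an SD of 4.99 CPM against 0.458 CPM in Mmrn1-low, and the log2 fold change was 0.46 ± 0.09 (SE), or 1.38-fold. Rgs12 (chromosome 5, 34949445-35039644, plus strand) shares 467 exon bases, 5.50% of its length, with the antisense gene Gm43791, which had 14 counts in all.

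Rgs14, its GoLoco relative, differed in the other direction. It had 31.2, 29.9 and 31.0 CPM in the Mmrn1-high libraries, against 37.9, 35.6 and 35.5 CPM in the Mmrn1-low libraries. All 3 Mmrn1-high values lay below all 3 Mmrn1-low values, at a log2 fold change of -0.24 ± 0.06 (SE), which with library totals alone as the scale was -0.10 and not called; it was also not called on the FPKM scales, which lack the composition adjustment. Set against Rgs10, which needs no scaling, Rgs14 had 133, 119 and 135 counts per 100 Rgs10 counts in the Mmrn1-high libraries, against 237, 193 and 218 in the Mmrn1-low libraries. This ratio did not overlap between the groups. As Rgs10 was itself 1.42-fold higher in Mmrn1-high cells, the ratio holds that difference too and cannot show that Rgs14 fell. Both genes were picked with these values known, so the ratio tests nothing. Rgs14 lies on chromosome 13 at 55369732-55384687, on the plus strand.

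Rgs19, the RZ gene, also known as GAIP, acts on Gi class subunits and did not differ beyond its spread. It had 92.2, 94.4 and 96.3 CPM in the Mmrn1-high libraries, against 99.2, 72.4 and 105 CPM in the Mmrn1-low libraries. The groups overlapped, because Mmrn1-low replicate 2 lay below and the other Mmrn1-low replicates above every Mmrn1-high library. The log2 fold change was 0.03 ± 0.14 (SE), and without Mmrn1-low replicate 2 it was -0.12. The spread among the Mmrn1-low libraries was wide for a gene of this level: of 3263 genes averaging between 50 and 200 CPM in both groups, 4.14% had a coefficient of variation in Mmrn1-low at least as large. Rgs19 lies on chromosome 2 at 181688419-181693977, on the minus strand.

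**Figure D3:**
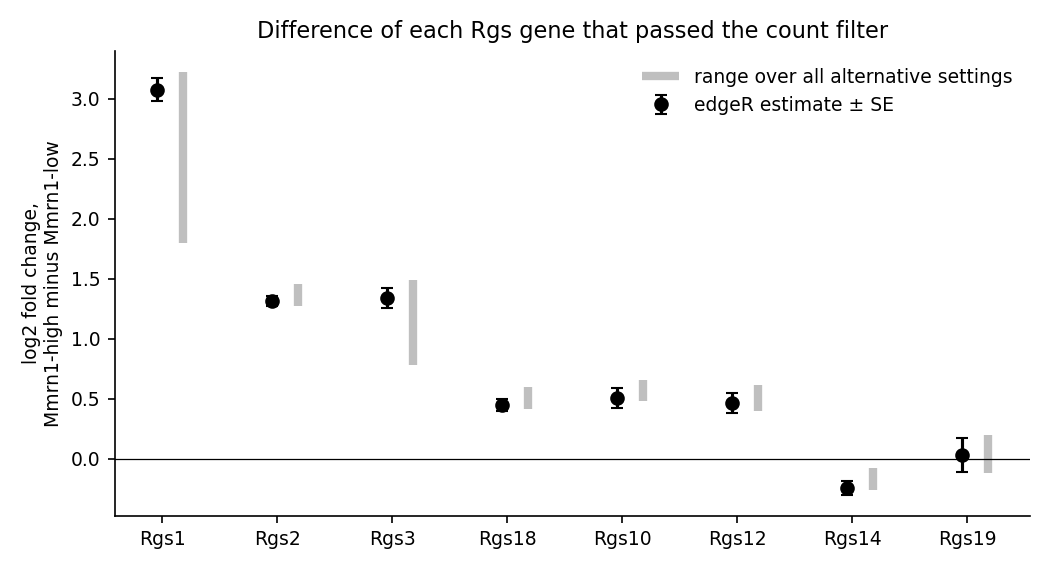
Log2 fold change, Mmrn1-high minus Mmrn1-low, of the 8 Rgs genes that passed the count filter; black points are edgeR estimates with SE, and grey bars span the estimates of 16 alternative settings. The bars of Rgs1, Rgs2, Rgs3, Rgs10, Rgs12 and Rgs18 stay above 0, that of Rgs14 stays below 0, and that of Rgs19 crosses 0.

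Levels of different genes can be compared only per length, and the length chosen moved the order of the 9 genes. In the deposited FPKM (fragments per kilobase of gene length, scaled to the library total), the length of a gene was the sum of all its distinct annotated exons, overlapping ones counted more than once, in 97.6% of 11390 genes checked to a tolerance of 0.1%. For Rgs1, with 9 annotated transcripts, that length was 18084 bases, more than the 6947 bases the gene spans. Levels are therefore also given as CPM per kb of merged exons and of the longest coding transcript, scales added after the data were seen. On the deposited FPKM scale, Rgs1 averaged 3.92 in Mmrn1-high and 0.416 in Mmrn1-low libraries. Per kb of merged exons it averaged 9.71 CPM in Mmrn1-high and 1.14 CPM in Mmrn1-low libraries.

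Rgs18, Rgs2 and Rgs19 had the highest mean levels of the 9 genes in both groups on all 3 scales. Among Mmrn1-high libraries, the deposited FPKM averaged 41.8 for Rgs18, 34.6 for Rgs2 and 15.3 for Rgs19. Per kb of merged exons, the Mmrn1-high levels of Rgs2 (42.5 CPM), Rgs19 (42.3 CPM) and Rgs18 (39.8 CPM) were close, and those of Rgs2 and Rgs19 overlapped between libraries. Among Mmrn1-low libraries, the same scale gave 41.4 CPM for Rgs19, 29.2 CPM for Rgs18 and 17.1 CPM for Rgs2. Rgs10 came next in either group, at 13.98 CPM per kb in Mmrn1-high and 9.88 in Mmrn1-low libraries.

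The lower part of the order differed between the groups. In Mmrn1-high libraries Rgs1 stood above Rgs14 (7.24 CPM per kb of merged exons), Rgs12 (5.01) and Rgs3 (2.40). In Mmrn1-low libraries Rgs14 (8.57), Rgs12 (3.62), Rgs1 (1.14) and Rgs3 (0.955) followed in that order, and Rgs1 and Rgs3 overlapped between libraries. On the deposited FPKM scale Rgs1 stood below Rgs14 (5.37) in Mmrn1-high libraries and last of the 8 genes in Mmrn1-low libraries.

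**Figure D4:**
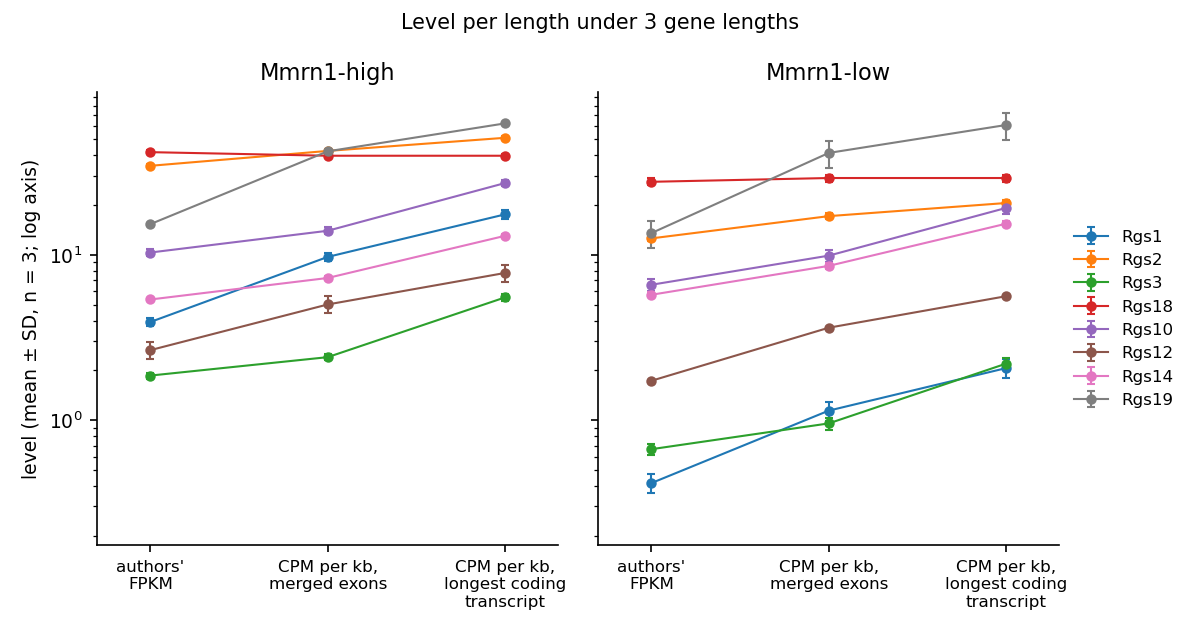
Level of the 8 Rgs genes that passed the count filter under 3 gene lengths (deposited FPKM, CPM per kb of merged exons, CPM per kb of the longest coding transcript; log axis); points are means and error bars SDs over 3 libraries, Mmrn1-high on the left and Mmrn1-low on the right. Lines cross where the length changes the order, as for Rgs19 against Rgs18 and Rgs1 against Rgs14 in Mmrn1-high.

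Added up, the 9 genes reached 163 ± 1.37 CPM per kb of merged exons in Mmrn1-high and 112 ± 7.59 in Mmrn1-low libraries (SD, n = 3 each). R4 genes made up 58.0 ± 0.358% of that sum in Mmrn1-high and 43.4 ± 2.74% in Mmrn1-low libraries. Rgs1 alone held 5.96 ± 0.307% in Mmrn1-high and 1.02 ± 0.0702% in Mmrn1-low libraries, and Rgs2 held 26.1 ± 0.467% in Mmrn1-high and 15.3 ± 0.560% in Mmrn1-low libraries. The share of Rgs14 was 4.44 ± 0.141% in Mmrn1-high and 7.69 ± 0.540% in Mmrn1-low libraries. Rgs18, although higher in Mmrn1-high cells, held 24.4 ± 0.579% in Mmrn1-high and 26.2 ± 2.39% in Mmrn1-low libraries. With the longest coding transcript as the length, the R4 share was 50.8 ± 0.358% in Mmrn1-high and 34.9 ± 2.17% in Mmrn1-low libraries.

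Genes with the profile most like that of Rgs1 over the 6 libraries, by Euclidean distance of centred log2 CPM, were Lifr (0.401), a cytokine receptor, and the immediate early genes Egr1 (0.406) and Nr4a1 (0.481). With libraries in 2 groups this distance mostly restates the log2 fold change, a value Rgs1 was picked with, and tests nothing. That change was 3.14 for Lifr, 3.00 for Egr1 and 3.41 for Nr4a1, against 3.08 for Rgs1. Egr1 averaged 209 ± 3.86 CPM in Mmrn1-high and 26.2 ± 1.78 CPM in Mmrn1-low libraries. Of 20 immediate early genes, a list of genes that cell handling can induce, 19 were tested and all 19 were higher in Mmrn1-high cells, with a median log2 fold change of 1.78. Their summed level was between 5848 and 5928 CPM in Mmrn1-high and between 1856 and 1988 CPM in Mmrn1-low libraries, and Egr2 was at 0 in every library. The part of this response in the levels of Rgs1, Rgs2 and Rgs16 was not tested. For Rgs14, the nearest profiles were those of Lypla1 (0.0408), Agfg1 (0.0478) and Gatad2a (0.0492). Their log2 fold changes were -0.23, -0.25 and -0.25, against -0.24 for Rgs14.

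Markers of mature cells that are known for Rgs transcripts were compared in the same libraries. B cell markers summed to between 42.0 and 43.7 CPM in Mmrn1-high and between 31.6 and 32.7 CPM in Mmrn1-low libraries, with 4 of 6 tested markers higher. Neutrophil markers were higher in 10 of 10 cases, and summed to between 4530.1 and 4808 CPM in Mmrn1-high and between 2741 and 2866 CPM in Mmrn1-low libraries. Macrophage and monocyte markers summed to between 305 and 333 CPM in Mmrn1-high and between 617 and 712 CPM in Mmrn1-low libraries, with 7 of 10 lower and 1 higher. Ly6c2 was the largest part of that sum, at 112 ± 8.72 CPM in Mmrn1-high and 432 ± 36.6 CPM in Mmrn1-low libraries. Csf1r, the higher gene, averaged 104 ± 5.05 CPM in Mmrn1-high and 85.3 ± 3.84 CPM in Mmrn1-low libraries. C1qc, among the lower ones, averaged 0.894 ± 0.219 CPM in Mmrn1-high and 10.5 ± 0.867 CPM in Mmrn1-low libraries. T and natural killer cell markers summed to between 146 and 148 CPM in Mmrn1-high and between 460.1 and 467 CPM in Mmrn1-low libraries. Nkg7 made up most of that sum, at 102 ± 1.18 CPM in Mmrn1-high and 449 ± 3.11 CPM in Mmrn1-low libraries, and was the 1 lower gene of 4 tested. The other called genes of that list were both higher: Lck averaged 37.5 ± 1.51 CPM in Mmrn1-high and 10.2 ± 0.614 CPM in Mmrn1-low libraries, and Klrb1c averaged 4.09 ± 0.486 CPM in Mmrn1-high and 1.61 ± 0.212 CPM in Mmrn1-low libraries. Endothelial markers summed to between 117 and 137 CPM in Mmrn1-high and between 91.3 and 94.3 CPM in Mmrn1-low libraries. Of 7 tested, 4 were higher and 2 lower. Egfl7 and Tie1, both higher, made up most of that sum. Egfl7 averaged 71.6 ± 13.3 CPM in Mmrn1-high and 37.3 ± 1.93 CPM in Mmrn1-low libraries. Tie1 averaged 44.7 ± 1.96 CPM in Mmrn1-high and 28.97 ± 0.167 CPM in Mmrn1-low libraries. The lower genes were Flt1 at -3.71 ± 0.23 and Stab2 at -2.81 ± 0.43 on the log2 scale. Cdh5 was not called (adjusted p = 0.312). The part of such cells in the Rgs levels was not tested.

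The RGS domain also occurs outside the 9 genes. Of 22 such genes, 11 were tested, 4 of these were higher in Mmrn1-high cells and 1 was lower, and the median log2 fold change was 0.26. Both depended on single libraries: without Mmrn1-low replicate 2 there were 3 higher, 3 lower and a median of 0.14, and without Mmrn1-high replicate 3 there were 3 higher, 2 lower and a median of 0.16. Arhgef12, an exchange factor that binds alpha subunits of the G12/13 class, averaged 19.5 ± 2.10 CPM in Mmrn1-high and 10.6 ± 0.451 CPM in Mmrn1-low libraries, a log2 fold change of 0.89 ± 0.10 (SE; adjusted p = 9.37e-05). Its relative Arhgef11 rose by 0.29 ± 0.06 on the log2 scale (adjusted p = 0.00213). Axin2, a feedback inhibitor of Wnt signalling, was low but higher in Mmrn1-high cells, at 1.82 ± 0.217 CPM against 0.683 ± 0.249 CPM in Mmrn1-low (adjusted p = 0.0037). Snx13, a sorting nexin, fell by 0.40 ± 0.10 on the log2 scale (adjusted p = 0.00731), a call that was lost on the 3 FPKM scales (adjusted p between 0.0781 and 0.133).

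Rgs11, of the R7 subfamily, had 18, 58 and 26 counts in the Mmrn1-high libraries, against 1, 9 and 27 counts in the Mmrn1-low libraries. Its log2 fold change of 1.45 ± 0.51 (adjusted p = 0.0401) was not called when any one Mmrn1-high replicate, or Mmrn1-low replicate 2, was left out, with adjusted p between 0.0731 and 0.114. Rgs7, Rgs13, Rgs17, Rgs20 and Rgs21 were at 0 counts in all 6 libraries. Counts were also too few to test for Rgs4, with 3 in Mmrn1-high and 9 in Mmrn1-low libraries, and for Rgs5, with 0 in Mmrn1-high and 9 in Mmrn1-low libraries. Rgsl1 had 3, 4 and 2 counts in the Mmrn1-high libraries, against 18, 5 and 25 counts in the Mmrn1-low libraries, and was not tested. Akap10, a kinase anchor with RGS domains, was not called, and without Mmrn1-low replicate 2 it was called at -0.47 (adjusted p = 0.000124), which is the library that stood low for Rgs19. Rgs8, Axin1, Arhgef1, Snx14 and Snx25 were not called either, with adjusted p between 0.0551 and 0.245. Snx25 was however called higher in 8 of 16 alternative settings, at adjusted p down to 0.00998, among them those without Mmrn1-high replicate 1 (0.0183) and without Mmrn1-low replicate 3 (0.0441). Axin1 (adjusted p = 0.015) and Arhgef1 (adjusted p = 0.00305) were called higher without Mmrn1-low replicate 1, and each was called in 6 settings in all.

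The G proteins on which RGS proteins act were mixed. Among 12 tested alpha subunit genes, Mmrn1-high cells had higher levels of 4 and lower levels of 3, and the median log2 fold change was 0.10. Gnai3, a Gi class subunit and so a substrate of most R4 proteins, fell to 220 ± 8.43 CPM in Mmrn1-high, against 313 ± 10.6 CPM in Mmrn1-low libraries (adjusted p = 1.24e-05). Gnai2, of the same class, was at 632 ± 5.48 CPM in Mmrn1-high and 689 ± 28.5 CPM in Mmrn1-low libraries, and its log2 fold change of -0.12 was 0.02 with library totals alone as the scale and was not called without Mmrn1-high replicate 2 (adjusted p = 0.0611). Gnaq, whose product is the main substrate of Rgs2, averaged 64.3 ± 1.12 CPM in Mmrn1-high and 67.7 ± 1.38 CPM in Mmrn1-low libraries and was not called (adjusted p = 0.155). Gna14, of the Gq class, rose by 1.7998 ± 0.21 on the log2 scale at a low level (adjusted p = 0.00015), and Gna12 fell by 0.66 ± 0.03 (adjusted p = 9.71e-07).

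Of 11 tested beta and gamma subunit genes, 5 were higher and 3 lower in Mmrn1-high cells. The lower call of Gng5 (adjusted p = 0.0303) was lost in most alternative settings, among them library totals alone (adjusted p = 0.312). Gng2 rose by 1.13 ± 0.05 on the log2 scale (adjusted p = 8.8e-07), while Gng12 fell by 1.15 ± 0.04 (adjusted p = 1.05e-07). Receptor kinases and arrestins, which switch off receptors upstream of the G protein, were 3 higher and 1 lower of 7 tested. Grk3, one of these kinases, rose by 0.51 ± 0.05 on the log2 scale (adjusted p = 3.66e-05). Grk6, the lower gene of this list, was not called with library totals alone (adjusted p = 0.72). Arrb2, among the higher ones, was not called with DESeq2 (adjusted p = 0.116) or without Mmrn1-low replicate 3 (adjusted p = 0.112). Among other regulators that bind alpha subunits, 4 of 7 were higher and 1 lower, and the GoLoco genes Gpsm1 and Gpsm2 differed in opposite directions, with 0.89 ± 0.09 for Gpsm1 (adjusted p = 5.72e-05) and -0.84 ± 0.08 for Gpsm2 (adjusted p = 4.1e-05).

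Downstream effectors, the adenylyl cyclases and the beta class of phospholipase C, were called in 8 of 8 tested cases, 6 higher and 2 lower. Adcy6, an adenylyl cyclase, rose by 1.17 ± 0.10 on the log2 scale (adjusted p = 2.62e-05). Plcb2, the phospholipase C of blood cells that Gq and beta-gamma subunits activate, fell to 143 ± 9.80 CPM in Mmrn1-high, against 231 ± 6.66 CPM in Mmrn1-low libraries (adjusted p = 1.01e-05).

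Of 35 tested receptors coupled to G proteins, 23 were higher in Mmrn1-high cells and 3 were lower, and the median log2 fold change was 0.79. F2r, the thrombin receptor gene, averaged 59.8 ± 0.402 CPM in Mmrn1-high and 17.3 ± 1.15 CPM in Mmrn1-low libraries (adjusted p = 1.67e-07). Tbxa2r, for thromboxane, rose by 1.96 ± 0.09 on the log2 scale (adjusted p = 6.76e-07), and Adora2a, for adenosine, by 1.72 ± 0.07 (adjusted p = 4.45e-07). The receptors that were lower were S1pr2 at -0.78 ± 0.09 (adjusted p = 0.000139), S1pr3 at -0.37 ± 0.07 (adjusted p = 0.00246) and Ptgir at -0.50 ± 0.13 (adjusted p = 0.0113), the first 2 for sphingosine-1-phosphate and the last for prostacyclin. The call of Ptgir was lost without Mmrn1-high replicate 2 (adjusted p = 0.0509) and on the 3 FPKM scales (adjusted p between 0.0833 and 0.138). Other sphingosine-1-phosphate receptors were higher, S1pr1 by 1.74 ± 0.12 (adjusted p = 6.48e-06) and S1pr4 by 0.39 ± 0.07 (adjusted p = 0.0022) on the log2 scale. Cxcr4 was not called, at 0.06 ± 0.03 (adjusted p = 0.163).

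**Figure D5:**
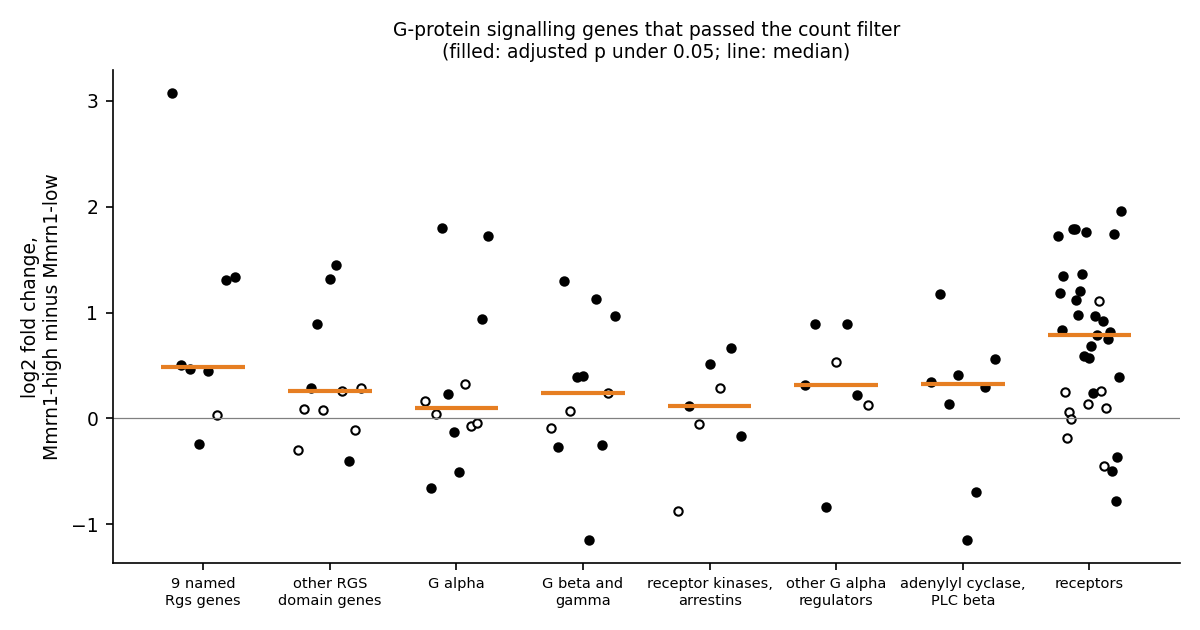
Log2 fold change, Mmrn1-high minus Mmrn1-low, of genes of G-protein signalling that passed the count filter, by list; each point is a gene, filled where the adjusted p was under 0.05, and lines are medians. The median was 0.48 for the Rgs genes, 0.26 for other genes with an RGS domain, 0.10 for alpha subunits and 0.79 for receptors.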

How the data were processed

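RNA-seq libraries were made from poly-A RNA with a stranded paired-end kit, per the labels' protocols. Per the submitters' processing notes, the tools were HISAT2, StringTie, edgeR and CASAVA 1.8, and the build was GRCm38. The sources used here do not give the role of each tool, the strand setting or any filter. The authors deposited raw read counts per gene and FPKM values, per the file headers. The 9 genes and all lists were chosen with earlier results of these data known. Genes to name were drawn from the 9, every other tested gene with an RGS domain and the 3 genes with the smallest p of each other list. Further sources were genes in counts of 5 or fewer and the 3 nearest profiles of the genes with the highest and lowest fold change. Mmrn1, Gnaq, Kit, Vwf, Hoxb5, Pf4, S1pr1, S1pr4, Cxcr4 and some untested Rgs genes were added after their values were seen.

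The test on counts was that of edgeR 4.0.16, run in R 4.3.3 (quasi-likelihood F test, robust, TMM factors, filterByExpr, group as the only term) over all genes that passed the filter, with Benjamini-Hochberg adjustment. The script was tested on simulated data with 200 changed genes. Each SE was obtained from the log2 fold change and the F statistic. Alternatives used limma 3.58.1 and DESeq2 1.42.0; on FPKM, limma was run on log2(FPKM + 1) or log2(FPKM + 0.1), a scale that understates changes of low genes. Exons and 3′ untranslated regions came from GENCODE M21 and promoters from RefSeq (GRCm38.p6), and coordinates of the 9 genes in the table were identical to GENCODE. Protein sequences were not analysed here. Intervals and limits from counts cover counting error only, since reads are not independent molecules. Whether the replicate numbers pair the libraries is not given in the labels and could not be decided from the counts.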

Additional observations from a re-analysis of the deposited data

How the results depend on the processing

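As a description, Rgs1, Rgs2, Rgs3, Rgs10, Rgs12 and Rgs18 were labelled higher in each of 16 alternative settings. Their log2 fold changes lay between 1.797 and 3.22 for Rgs1, between 1.28 and 1.46 for Rgs2, between 0.78 and 1.49 for Rgs3, between 0.48 and 0.65 for Rgs10, between 0.39 and 0.61 for Rgs12, and between 0.42 and 0.60 for Rgs18. The lowest values of Rgs1 and Rgs3 came from log2(FPKM + 1), which understates low genes. Rgs14 was called lower in 12 settings and not called in 4, library totals alone and the 3 on FPKM, which share that scale and shift the median of all genes by between 0.13 and 0.15. With library totals alone, 6201 genes were higher and 3193 lower, against 4737 and 4701 with TMM factors, and 8 other genes with an RGS domain were called, against 5. With a further threshold of 1 on the size of the log2 fold change, 2492 genes, 16.2% of all tested, were called. The 3 of the 8 tested Rgs genes past it describe the values they were picked with and test nothing. Without the filter Rgs16 was called higher, at 3.04. Leaving out 1 library gave between 8601 and 8937 calls over all genes, 7 to 7 among the Rgs genes and 5 to 7 among the other genes with an RGS domain; the log2 fold change of Rgs19 then lay between -0.12 and 0.14, and the median of receptor kinases and arrestins between -0.0037 and 0.37. The median of those other genes was 0.40 with library totals alone, 0.14 with at least 5 CPM in 3 libraries, 0.10 without the filter and 0.022 on unfiltered FPKM, against 0.26. The replicate block gave 8923 calls over all genes, 7 among the Rgs genes and 6 among the others. Deviations of same-numbered libraries correlated at 0.04, -0.08 and 0.03. With 3 libraries per group these values cannot decide whether the numbers pair the libraries. Directions turned for Rgs19 at -0.12 without Mmrn1-low replicate 2; for the median of alpha subunits at -0.0062 with at least 5 CPM in 3 libraries; for that of receptor kinases and arrestins at -0.0037 without Mmrn1-high replicate 2; for Gnai2 at 0.025 with library totals alone and 0.024, 0.025 and 0.024 on the 3 FPKM scales; and for Snx14 at 0.036 with library totals alone and 0.022, 0.027 and 0.022 on those scales. The cause of these changes was not tested. Depth limits Rgs16, Rgs11, Rgsl1 and the undetected Rgs genes.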
